A study of Mus musculus with 2 samples.

Results

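The 8 serpins described here, *Serpina3f*, *Serpina3g*, *Serpina3n*, *Serpinb1a*, *Serpinb6a*, *Serpinb6b*, *Serpinb9* and *Serping1*, were taken by symbol from 50768 genes counted in both libraries, which hold 69 genes whose symbols start with Serpin. They were listed with earlier results of these libraries known. *Serpina3g* was selected on its level in NOD macrophages, where it was among the highest genes, so its values in macrophages are given as a description. The data are single-cell RNA sequencing (scRNAseq) of salivary glands from untreated 20-week-old female mice, with 1 library of NOD/ShiLtJ, an inbred strain that develops autoimmune inflammation of the gland, and 1 library of CD1, an outbred strain used as the control. Each library pooled submandibular glands with adjacent sublingual glands (4 mice per strain in the methods and 3 in the labels), and epithelial and red blood cells were depleted. With 1 library per strain there was no replicate, so no test was made, and strain, pool and library cannot be told apart. All intervals are at 95% and cover counting error only.

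Serpins are protease inhibitors that trap their target protease by presenting a bait loop, which the protease cuts and stays bound to. Genes of the *Serpina3* cluster encode secreted or intracellular relatives of antichymotrypsin that are known as inflammation-responsive genes, clade B serpins act inside cells, where several of them inhibit granule proteases of lymphocytes and neutrophils, and *Serping1* encodes the C1 inhibitor of the complement and contact systems. In inflamed glands, such inhibitors stand opposite the granzymes of lymphocytes and the cathepsins of macrophages.

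To show where inflammation-responsive elements lie in these genes, the 250 bases before the RefSeq transcription start (GRCm38.p6, reference strain) are printed for the 3 *Serpina3* genes, whose promoters belong to 1 cluster of relatives, and for *Serpinb9* and *Serpinb6b*, which were both higher in NOD barcodes of natural killer (NK) cells. Capitals mark matches, on either strand, to 4 motifs. These were the GAS element TTCNNNGAA, the interferon element ISRE (GAAA, any 2 bases, GAAA), the NF-kB-type element GGGNNTTCC and the AP-1 element TGANTCA.
*Serpina3g*, chr12:104235897-104236146, + strand: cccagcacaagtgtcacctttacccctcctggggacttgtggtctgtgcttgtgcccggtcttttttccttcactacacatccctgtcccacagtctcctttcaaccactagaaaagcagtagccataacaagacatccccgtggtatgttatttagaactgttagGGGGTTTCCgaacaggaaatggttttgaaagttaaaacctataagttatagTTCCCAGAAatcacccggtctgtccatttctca
*Serpina3f*, chr12:104214294-104214543, + strand: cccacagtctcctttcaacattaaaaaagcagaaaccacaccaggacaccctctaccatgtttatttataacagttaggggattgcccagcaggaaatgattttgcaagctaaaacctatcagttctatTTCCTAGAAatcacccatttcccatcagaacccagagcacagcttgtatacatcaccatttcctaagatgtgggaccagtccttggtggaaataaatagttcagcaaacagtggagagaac
*Serpina3n*, chr12:104406458-104406707, + strand: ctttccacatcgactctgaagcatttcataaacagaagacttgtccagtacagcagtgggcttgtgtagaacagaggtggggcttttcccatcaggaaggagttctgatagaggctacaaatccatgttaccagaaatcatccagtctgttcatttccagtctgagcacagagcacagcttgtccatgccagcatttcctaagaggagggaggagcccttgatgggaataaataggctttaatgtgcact
*Serpinb9*, chr13:33004291-33004540, + strand: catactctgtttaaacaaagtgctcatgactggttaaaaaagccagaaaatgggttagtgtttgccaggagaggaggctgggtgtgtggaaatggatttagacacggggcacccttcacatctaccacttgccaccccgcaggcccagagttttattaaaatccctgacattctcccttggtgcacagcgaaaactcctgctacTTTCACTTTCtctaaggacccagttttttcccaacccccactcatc
*Serpinb6b*, chr13:32965011-32965260, + strand: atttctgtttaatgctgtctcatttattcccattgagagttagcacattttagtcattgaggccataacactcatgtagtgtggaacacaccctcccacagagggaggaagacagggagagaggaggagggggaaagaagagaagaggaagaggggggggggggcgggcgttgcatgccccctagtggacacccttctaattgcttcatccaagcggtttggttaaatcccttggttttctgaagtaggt
The *Serpina3g* window held TTCCCAGAA, a GAS match 33 to 25 bases before the start, and GGGGTTTCC, an NF-kB-type match 84 to 76 bases before it. *Serpina3f* held the GAS match TTCCTAGAA 121 to 113 bases before the start of the printed window and 210 to 202 bases before its other annotated start, whereas the *Serpina3n* window held no match to any of the 4 motifs. *Serpinb9* held the ISRE match TTTCACTTTC 46 to 37 bases before its start, and the *Serpinb6b* window held none of the 4. In 1 of 2 annotated windows of *Serpinb6a*, not printed, an ISRE match overlapped a GAS match. Of 32851 RefSeq promoter windows of this length, 7.02% held the GAS motif, 2.98% the ISRE, 4.98% the NF-kB-type element and 6.75% the AP-1 element, which no window of the 8 serpins held. The table gave windows for 6 of the 8 genes, without *Serpinb1a* and *Serping1*. A match is a run of letters and not a measured binding site.

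Barcodes with at least 500 UMIs (unique molecular identifiers, each a counted transcript) and at least 300 genes were kept, 6500 in the NOD and 7014 in the CD1 library, with medians of 5719.5 and 6495 UMIs, and 18 barcode sequences occurred in both. Each barcode took the lineage of which it showed the highest share of marker genes. The NOD and CD1 libraries held 2031 and 101 T, 463 and 319 NK, 908 and 8 B, 682 and 2908 macrophage, 36 and 5 dendritic, 1021 and 2845 endothelial and 57 and 17 fibroblast barcodes. All markers of these lineages had UMIs in their class except 1 of 6 dendritic markers in CD1. The classes were set by these same markers, so this is a description and not a check. Fibroblasts were few for samples labelled as enriched for stroma. The NOD macrophage barcodes were shallower than those of CD1 (medians of 3001.5 and 6946.5 UMIs). Levels are given as CPM (counts per 1000000 UMIs of the lineage in a library).

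All 8 serpins were detected in both libraries, and together they held 53.3% of the 35207 serpin UMIs. Their levels differed between lineages. *Serpina3g* was carried by lymphocytes in both strains and by macrophages in NOD. In T and NK barcodes *Serpina3f* was lower than *Serpina3g*. *Serpinb6b* and *Serpinb9* were highest in NOD NK barcodes among the immune lineages, and *Serpinb9* and *Serpinb6a* were also endothelial. *Serpinb1a* was highest in NOD B barcodes among classes with at least 10 barcodes, and *Serping1* was highest in fibroblasts and mural cells. *Serpina3n*, the member best known as an acute phase gene, had 21 UMIs in the NOD and 10 in the CD1 library.

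**Figure D1:**
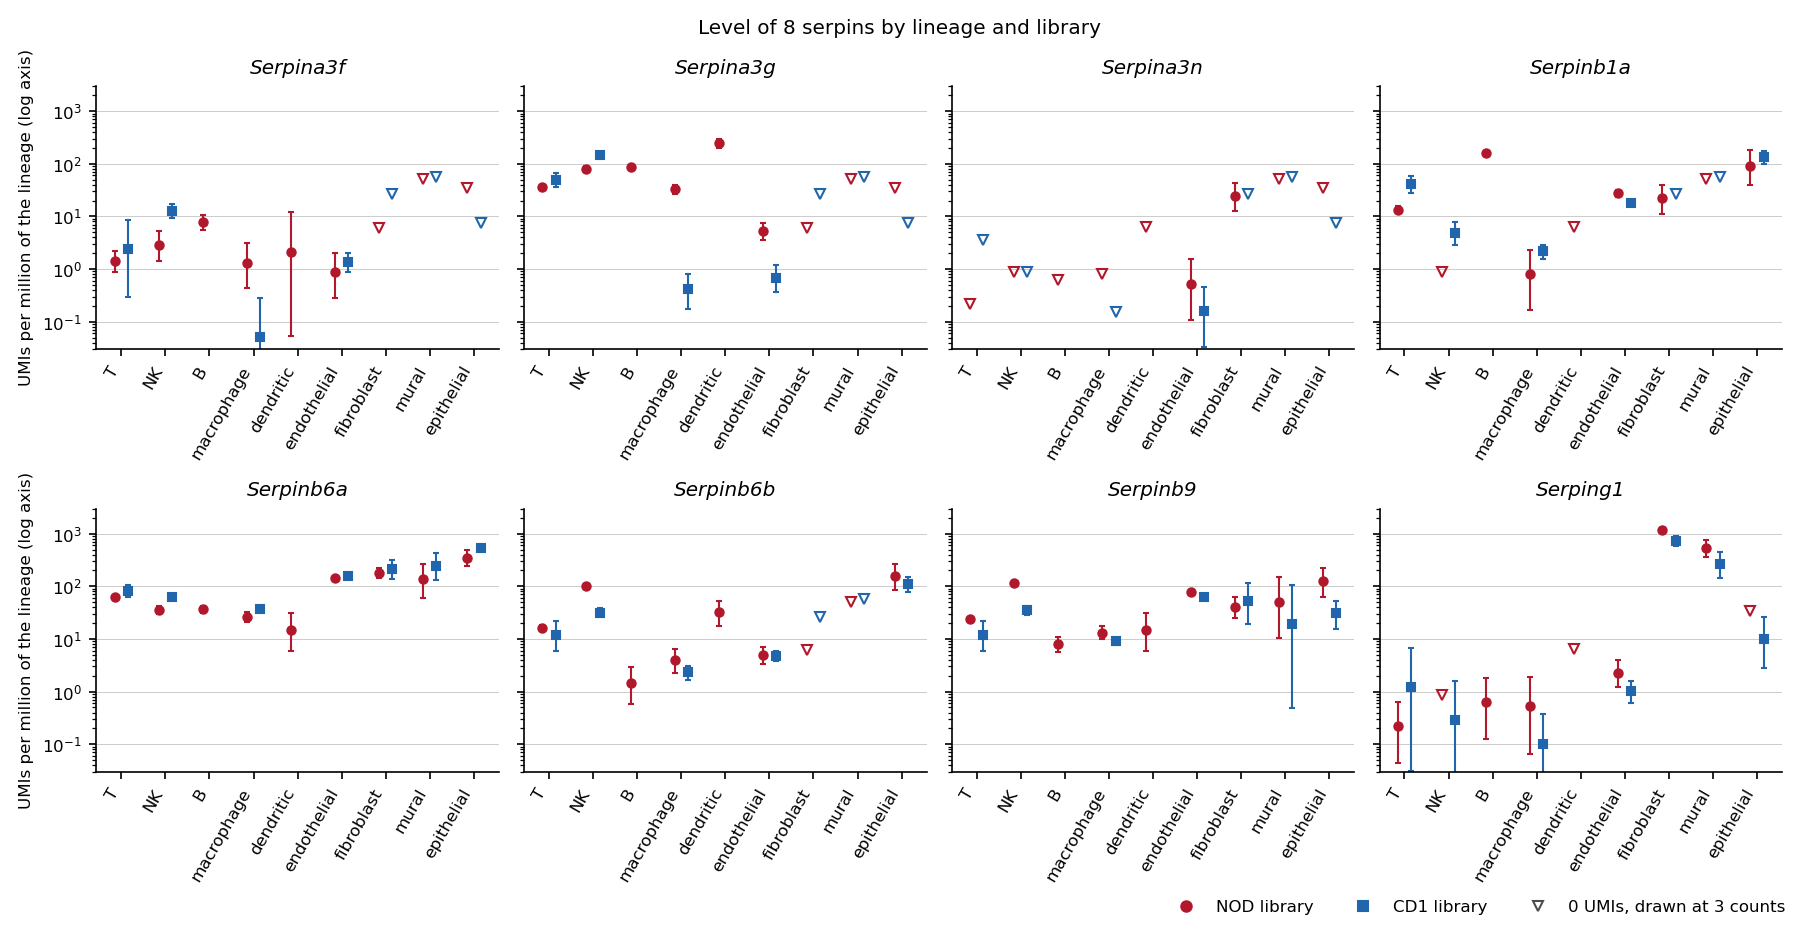
CPM (log axis) for each serpin, in lineages with at least 10 barcodes, with NOD as circles and CD1 as squares. Bars are 95% Poisson intervals, a few of which run below the axis, and open triangles mark 0 UMIs, drawn at the level of 3 counts. *Serpina3g* in macrophages lies at 32.5 CPM in NOD and 0.411 CPM in CD1, and *Serping1* reaches 1169 and 737 CPM in fibroblasts.

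Of the 8 serpins, those with at least 20 UMIs over both libraries were compared, and a ratio of 2-fold or more was called. In NK barcodes 5 could be compared, 2 were higher in NOD (*Serpinb6b* and *Serpinb9*) and 1 was lower (*Serpina3f*), where 5.48% of all genes were called higher and 4.57% lower. In endothelial barcodes 7 could be compared, 2 were higher (*Serpina3g* and *Serping1*) and 0 lower, against 7.02% and 3.84% of all genes. In T barcodes 0 of 6 were higher and 1 was lower (*Serpinb1a*), against 9.83% and 5.57%. In barcodes with both T and NK markers 0 of 5 were higher and 1 was lower (*Serpina3f*), against 7.64% and 3.65%. In fibroblasts 0 of 3 were called in either direction, against 20.1% and 5.03%. In macrophages, where the listing used the values, 1 of 5 was higher (*Serpina3g*) and 1 lower (*Serpinb1a*), beside 7.06% and 5.42%. The median log2 ratio of the compared serpins was -0.78 in NK, 0.31 in endothelial, -0.41 in T, -0.23 in fibroblast and 0.54 in macrophage barcodes, and that of all genes 0.03, 0.07, 0.11, 0.24 and 0.05. Of the 8 serpins, *Serpina3g* was called higher in 2 of the lineages, *Serpinb1a* and *Serpina3f* were each called lower in 2 classes, and no serpin was called in every lineage.

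**Figure D2:**
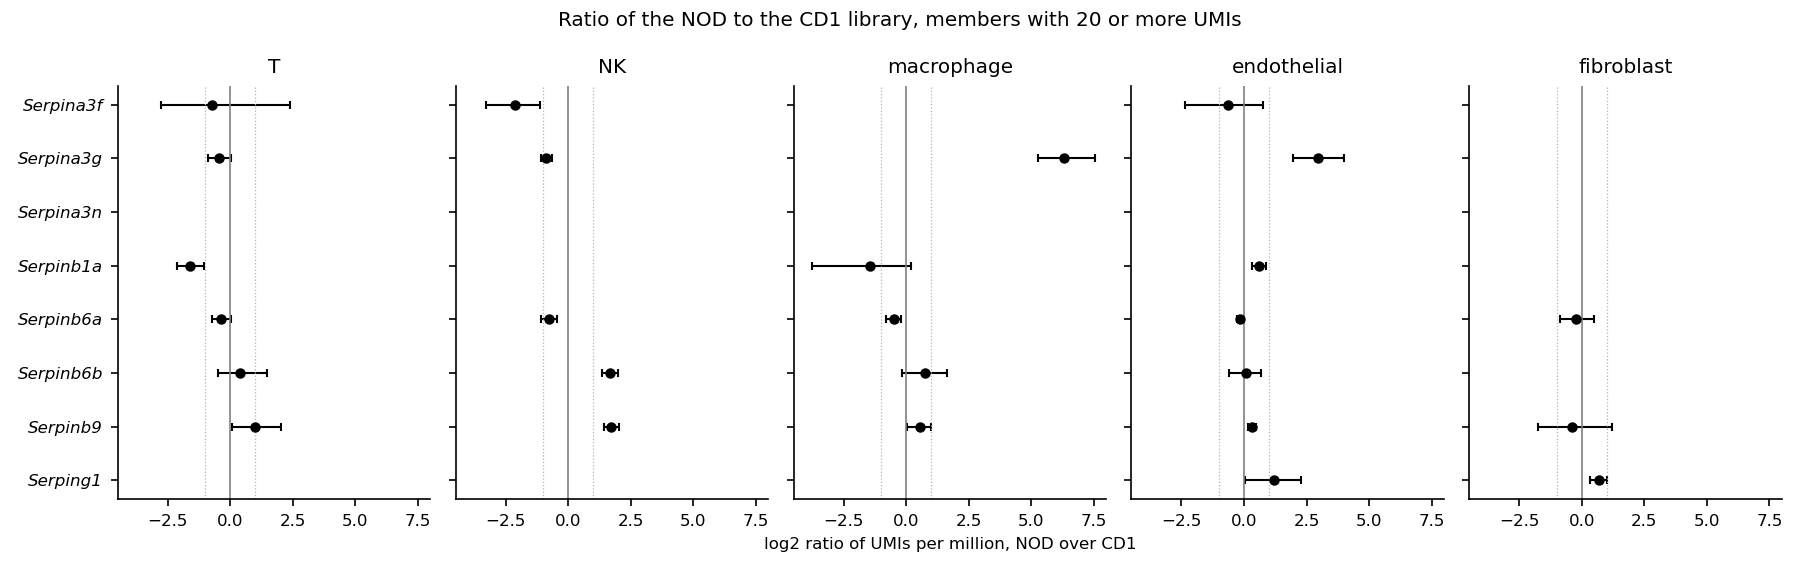
Log2 ratio of CPM, NOD over CD1, for each serpin with at least 20 UMIs in a lineage, with conditional binomial 95% intervals. The solid line marks equal levels and the dotted lines 2-fold. *Serpina3g* lies at 6.30 in macrophages and at -0.88 in NK barcodes.

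*Serpina3g* encodes an intracellular inhibitor of cysteine cathepsins, known as a gene that interferons and lymphocyte activation switch on. In macrophages it had 123 UMIs in NOD, 32.5 CPM (27.0 to 38.8), and 8 UMIs in CD1, 0.411 CPM (0.178 to 0.810), a log2 ratio of 6.30 (5.28 to 7.55). The NOD level rested on few barcodes. Of 682 NOD macrophage barcodes 38 (5.57%, 3.97 to 7.57) held a UMI, 21 of them a single UMI, and the highest held 21 UMIs, whereas 4 of 2908 CD1 macrophage barcodes did (0.138%). After each barcode was thinned to 500 UMIs the shares were 0.733% and 0.0344%. In NOD fibroblasts, which were deeper, 0 of 57 barcodes held a UMI, which allows a share of barcodes with a UMI of up to 5.26% (3 counts of the 57), and in the deeper NOD endothelial barcodes 1.18% did.

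*Serpina3g* was also in the RNA of empty droplets, at 56.1 CPM in NOD and 13.9 CPM in CD1. Scaled by the markers of other lineages, free RNA made up 2.33% of the NOD macrophage UMIs, which would give 1.31 CPM of *Serpina3g* against the measured 32.5 CPM, a scaling chosen after values were seen. Scaled by salivary secretory genes, which these barcodes held at 132 CPM and empty droplets at 53.3 CPM, the estimate was 248% and 139 CPM, more than all UMIs of the class, so the free RNA in this class is not settled. Among macrophage barcodes with at least 2 monocyte markers, 12 in NOD and 7 in CD1, the level was 178 and 28.8 CPM. Among dividing macrophage barcodes it was 87.5 CPM in 19 NOD barcodes, with 0 UMIs in 74 CD1 barcodes. In the other macrophage barcodes it was 21.5 and 0.272 CPM. These values belong to those that selected the gene and are given as a description.

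The NOD macrophage barcodes that held *Serpina3g* also held more of the 16 genes of an interferon-gamma response list. The listed genes summed to 7647 CPM in the 38 barcodes with a *Serpina3g* UMI and to 2367 CPM in the 644 without. *Cxcl9*, a chemokine that interferon-gamma induces, was at 2472 and 136 CPM, *Cxcl10* at 995 and 189 CPM, and the guanylate-binding protein gene *Gbp2* at 517 and 74.9 CPM. The receptor genes *Ifngr1* and *Ifngr2* differed little, at 257 and 225 CPM and at 219 and 222 CPM. The barcodes with a UMI were deeper (medians of 7269 and 2823.5 UMIs). Among NOD macrophage barcodes with at least 5000 UMIs, the list stood at 7848 CPM in 25 barcodes with and at 2578 CPM in 268 without, at medians of 10442 and 9623 UMIs. T and NK markers were no higher in the macrophage barcodes with a UMI (11.7 against 26.1 CPM for T markers, 26.3 against 27.0 for NK markers), and B markers were at 64.2 against 53.1 CPM. Monocyte markers were higher in them, at 371 against 152 CPM, and their part in the result was not tested. In CD1 only 4 macrophage barcodes held *Serpina3g*, with the list at 1852 CPM against 1618 CPM in the others.

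**Figure D3:**
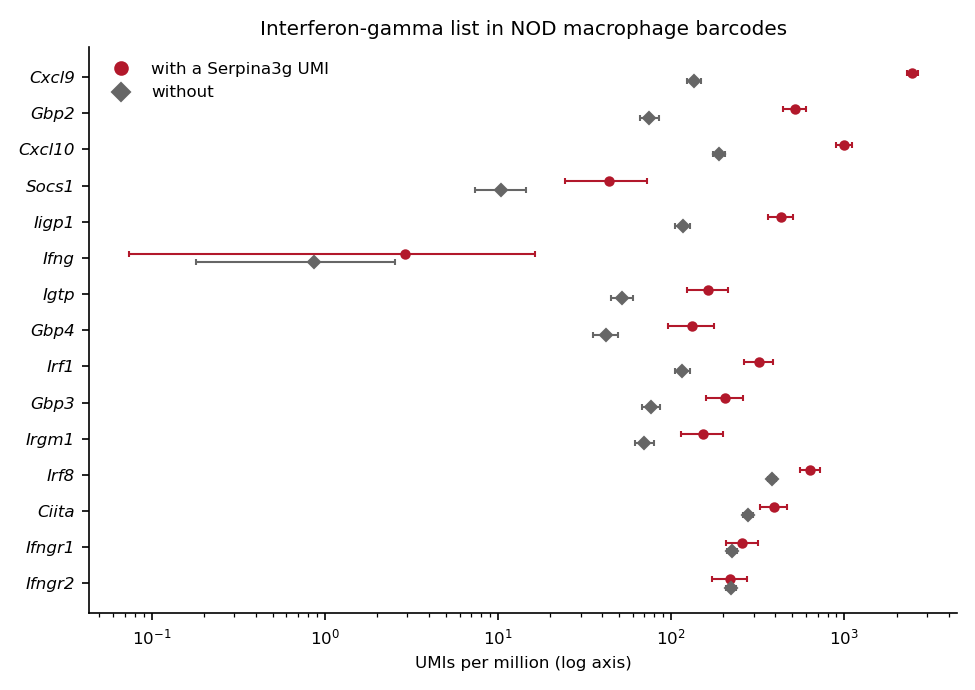
CPM (log axis) of 15 genes of the interferon-gamma list in NOD macrophage barcodes with a *Serpina3g* UMI (circles, 38 barcodes) and without (diamonds, 644 barcodes), ordered by their ratio, with 95% Poisson intervals. *Cxcl9* lies furthest apart, at 2472 and 136 CPM, and *Ifngr2* lies at 219 and 222 CPM.

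In lymphocytes *Serpina3g* was present in both strains. In NK barcodes it was at 79.3 CPM (70.2 to 89.3) in NOD and 146 CPM (134 to 159) in CD1, a log2 ratio of -0.88 (-1.10 to -0.66). The NK class is a mixture, and the mixture differed between the libraries. By marker genes, 166 NOD and 212 CD1 barcodes were ILC1-like, tissue-resident relatives of NK cells, and 169 and 39 were conventional NK. *Serpina3g* belonged to the ILC1-like barcodes, at 140 and 186 CPM, against 31.1 and 23.2 CPM in conventional NK barcodes. Within ILC1-like barcodes the log2 ratio was -0.41 (-0.69 to -0.13), within conventional NK barcodes 0.43 (-0.63 to 1.65), and with the CD1 subsets weighted by the NOD mix -0.25. The lower NOD level in NK barcodes thus shrank when the subsets were compared alike.

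T barcodes held 36.2 CPM of *Serpina3g* in NOD and 49.4 CPM in CD1, with a log2 ratio of -0.45 whose interval (-0.91 to 0.05) held 0. Barcodes with both T and NK markers were at 93.4 and 127 CPM. NOD and CD1 T barcodes with a *Cd4* UMI and none of *Cd8a*, *Cd8b1* or *Foxp3* were at 39.1 and 15.8 CPM. The CD1 value came from 4 UMIs in 32 barcodes, and the log2 ratio of 1.31 had an interval (-0.07 to 3.20) that held 0. Those with a *Cd8a* or *Cd8b1* UMI and no *Cd4* were at 21.1 and 121 CPM, the last from 18 UMIs in 15 barcodes. Their log2 ratio was -2.52 (-3.28 to -1.68). Of the 41 *Serpina3g* UMIs in all CD1 T barcodes, 1 barcode held 11. NOD T barcodes with a UMI of *Foxp3*, a regulatory T-cell gene, were at 84.3 CPM. NOD B barcodes held 86.9 CPM (78.8 to 95.6), in 200 of 908 barcodes, while the 8 CD1 B barcodes held 0 UMIs with a floor of 65.3 CPM, so no B-cell difference was detectable. Scaled by secretory genes, free RNA would make up 101% of the NOD B class and give 56.6 CPM of *Serpina3g*. Scaled by markers of other lineages it would give 4.88 CPM, so the free RNA in this class is not settled. In NOD T barcodes these estimates were 12.7 and 2.94 CPM. In NOD dendritic barcodes the mean of 245 CPM came from 3 of 36 barcodes, the highest with 66 of the 115 UMIs.

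Endothelial *Serpina3g* was low, 5.29 CPM in NOD (30 UMIs in 12 of 1021 barcodes) and 0.687 CPM in CD1, a log2 ratio of 2.95 (1.96 to 4.01). A single NOD barcode, with venous markers, held 17 of the 30 UMIs, and without the highest barcode of each library the ratio was 2.12. In 7 NOD barcodes with venous endothelial markers it was at 450 CPM (19 UMIs), and the 4 CD1 venous barcodes held 0 UMIs. In the 767 NOD and 2218 CD1 capillary barcodes it was at 1.54 and 0.634 CPM, a log2 ratio of 1.27 whose interval (-0.36 to 2.82) held 0. Free RNA would give 1.22 CPM in NOD endothelial barcodes when scaled by markers of other lineages, near the capillary level. Scaled by secretory genes it would give 5.76 CPM, above the 5.29 CPM of the whole class. The capillary level could thus not be told apart from background, nor, by secretory genes, could that of the whole class.

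*Serpina3f*, the neighbour and close relative of *Serpina3g*, had 105 UMIs in NOD and 113 in CD1. It was at 2.92 CPM (1.40 to 5.36) in NOD and 12.7 CPM (9.21 to 17.0) in CD1 NK barcodes, a log2 ratio of -2.12 (-3.27 to -1.11), and within ILC1-like barcodes at 6.83 and 16.7 CPM, a ratio of -1.29 (-2.70 to -0.10). In CD1 NK barcodes 26 of the 32 barcodes with *Serpina3f* also held *Serpina3g*, as did 43.9% of those without. The barcodes with *Serpina3f* were deeper (medians of 11375.5 and 9329 UMIs), and the part of depth was not tested. NOD B barcodes were at 7.67 CPM (37 UMIs). In macrophages *Serpina3f* had 5 UMIs in NOD and 1 in CD1, a log2 ratio of 4.68 (1.52 to 10.25) below the minimum for a call, in the same direction as *Serpina3g*. In endothelial barcodes it had 5 UMIs in NOD and 26 in CD1, a ratio of -0.64 (-2.38 to 0.76), where that of *Serpina3g* was 2.95. Of the 50-base words in the last 500 bases of the longest coding *Serpina3g* transcript (GENCODE M21), 2.44% also occurred in another serpin gene, against 1.55% for *Serpina3f* and 0% for the other 6 serpins, so little of the 3′ ends was shared. *Serpina3n* had 12 UMIs in 7 of 57 NOD fibroblasts (24.2 CPM) and 0 in 17 CD1 fibroblasts, whose floor was 26.3 CPM. It had 0 UMIs in T, NK, B and macrophage barcodes of both libraries. The floors ran from 0.154 CPM in CD1 macrophages to 3.62 CPM in CD1 T and 65.3 CPM in the 8 CD1 B barcodes, where absence was thus not shown.

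**Figure D4:**
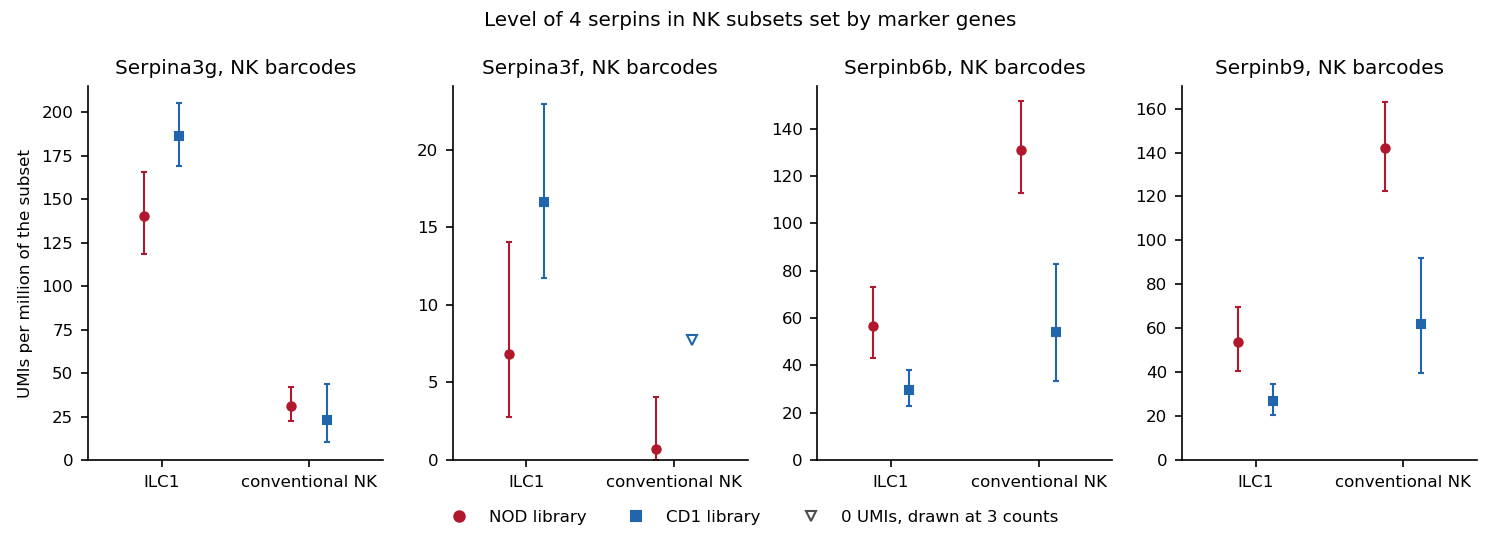
Level (CPM of the subset, linear axis from 0) of 4 serpins in ILC1-like and conventional NK barcodes, with 95% Poisson intervals and a triangle at 3 counts for 0 UMIs. *Serpina3g* is high in ILC1-like barcodes of both strains (140 and 186 CPM), and *Serpinb9* is highest in NOD conventional NK barcodes (142 CPM).

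*Serpinb9*, the inhibitor of granzyme B, and *Serpinb6b*, an inhibitor of granzyme A, were higher in NOD NK barcodes. *Serpinb9* was at 116 CPM (104 to 127) in NOD and 34.8 CPM (28.9 to 41.6) in CD1, a log2 ratio of 1.73 (1.43 to 2.04). *Serpinb6b* was at 100.05 CPM (89.7 to 111) and 31.7 CPM (26.0 to 38.2), a ratio of 1.66 (1.35 to 1.98). The difference stood in both subsets. In conventional NK barcodes *Serpinb9* was at 142 and 61.7 CPM (1.20, 0.58 to 1.88) and *Serpinb6b* at 131 and 54.0 CPM (1.28, 0.62 to 2.00), and in ILC1-like barcodes they were at 53.6 and 27.0 CPM (0.99, 0.43 to 1.54) and at 56.6 and 29.7 CPM (0.93, 0.39 to 1.46). With the CD1 subsets weighted by the NOD mix the ratios were 1.15 and 1.19. No top barcode carried them, since the highest held 4.80% and 4.66% of the NOD NK UMIs of these genes.

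Genes of granule proteases that these serpins meet, and of perforin, were higher in the NK class as a whole, but not all of them within its subsets. Of 24 listed genes, proteases apart from perforin, 10 could be compared in NK barcodes. In NOD 7 were at least 2-fold higher, among them perforin and the cathepsin gene *Ctsl*, and 0 lower. The median log2 ratio was 1.31 against 0.03 over all genes. Granzyme A (*Gzma*) was at 1589 and 465 CPM, granzyme B (*Gzmb*) at 114 and 41.8 CPM, and perforin (*Prf1*), which opens the target membrane, at 277 and 127 CPM. Within conventional NK barcodes *Gzma* was at 1717 CPM in NOD and 1948 CPM in CD1, *Prf1* at 358 and 342 CPM and *Gzmb* at 108 and 66.9 CPM. Within ILC1-like barcodes *Gzma* was at 897 and 76.6 CPM, *Prf1* at 89.7 and 74.8 CPM and *Gzmb* at 40.0 and 34.2 CPM, so the gap of *Prf1* was small in both subsets and that of *Gzma* stood in ILC1-like barcodes. The list had 2 of 9 compared genes higher in T barcodes, 2 of 9 in macrophages, 4 of 14 in endothelial and 2 of 7 in fibroblast barcodes, where 1 was lower, and 0 lower in the others. Within a library, *Gzmb* was higher in NK barcodes with a *Serpinb9* UMI than in those without, at 182 and 39.8 CPM in NOD and at 80.1 and 23.7 CPM in CD1. The split by *Serpinb6b* gave 2239 and 1013 CPM of *Gzma* in NOD and 796 and 331 CPM in CD1. Barcodes with a UMI were deeper, by 9743 against 4873 median UMIs for *Serpinb9* in NOD and 11522 against 8916 in CD1, and the part of depth was not tested. Of the 156 NOD NK barcodes with *Serpinb6b*, 56.4% held *Serpinb9*, against 26.4% of those without. The splits by *Serpinb9* and *Serpinb6b* were not made within the NK subsets. In each library conventional NK barcodes held more *Serpinb9*, *Serpinb6b*, *Gzmb* and *Gzma* than ILC1-like barcodes, and the part of the subset was not tested.

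In T, endothelial and macrophage barcodes *Serpinb9* differed less than in NK barcodes. In T barcodes it was at 23.6 CPM in NOD and 12.1 CPM in CD1 (10 UMIs), a log2 ratio of 0.97 (0.07 to 2.04). In endothelial barcodes it was at 76.4 CPM (69.3 to 83.9) and 61.6 CPM (58.1 to 65.2), a ratio of 0.31 (0.15 to 0.47), and 26.2% and 27.1% of barcodes held a UMI. Macrophages were at 13.2 and 9.10 CPM, with a ratio of 0.54 (0.05 to 1.00). *Serpinb6b* was at 16.01 and 12.1 CPM in T barcodes, 4.94 and 4.70 CPM in endothelial barcodes and 3.96 and 2.31 CPM in macrophages, and the intervals of all 3 ratios held 0. In epithelial barcodes, 13 in NOD and 75 in CD1, *Serpinb6b* stood at 159 and 109 CPM, from 14 and 43 UMIs. *Serpinb9* stood there at 125 and 30.5 CPM, from 11 and 12 UMIs. Its log2 ratio of 2.03 (0.71 to 3.34) was above that in NK barcodes but came from few UMIs.

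*Serpinb6a*, which had the most UMIs of the 8 serpins and is an inhibitor of several granule and lysosomal proteases, was the broadest. It was at 352 CPM in NOD and 532 CPM in CD1 epithelial barcodes, 180 and 211 CPM in fibroblasts, 141 and 157 CPM in endothelial, 63.8 and 82.0 CPM in T, 36.2 and 61.9 CPM in NK and 26.1 and 36.9 CPM in macrophage barcodes. The level was lower in NOD in each of these 6 lineages, by a log2 ratio of -0.60 in epithelial, -0.78 in NK, -0.50 in macrophage, -0.36 in T, -0.23 in fibroblast and -0.15 in endothelial barcodes. None reached 2-fold, and the intervals in T (-0.72 to 0.02) and fibroblasts (-0.89 to 0.49) held 0. Empty droplets differed in the same direction, with *Serpinb6a* at 50.8 CPM in NOD and 136 CPM in CD1, and the levels above include free RNA. Scaled by secretory genes, free RNA would give 126 CPM in NOD and 22.1 CPM in CD1 macrophages. Scaled by markers of other lineages it would give 1.19 and 2.04 CPM, so a strain difference within macrophages was not settled. In NK barcodes free RNA would give at most 3.06 CPM in NOD and 2.81 CPM in CD1 by either scaling. The measured levels there were 36.2 and 61.9 CPM. In endothelial barcodes the larger estimates were 5.22 and 2.42 CPM, against 141 and 157 CPM. Those in NOD T and fibroblast barcodes were 11.5 and 28.9 CPM, both by secretory genes. A strain difference within cells was not tested.

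*Serpinb1a*, an inhibitor of neutrophil elastase-type proteases, was highest in B barcodes, at 163 CPM (152 to 175) in NOD, where 383 of 908 barcodes held it, and at 174 CPM in the 8 CD1 B barcodes (8 UMIs). In T barcodes it was at 13.5 CPM (11.6 to 15.5) in NOD and 41.0 CPM (28.4 to 57.3) in CD1, a log2 ratio of -1.61 (-2.14 to -1.03). Among barcodes with at most 5% mitochondrial UMIs the ratio in T barcodes was -0.22, with 6 CD1 UMIs left. NK barcodes held 0 UMIs in NOD and 17 in CD1, below the minimum for a call.

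In endothelial barcodes *Serpinb1a* was at 27.5 CPM (23.4 to 32.2) in NOD and 18.3 CPM (16.5 to 20.4) in CD1, a log2 ratio of 0.59 (0.30 to 0.86). A single venous NOD barcode held 42 of the 156 UMIs, and without the highest barcode of each library the ratio was 0.17, and 0.07 at a mitochondrial limit of 10%. The 7 NOD venous barcodes stood at 1065 CPM, whereas capillary barcodes were at 20.0 and 18.8 CPM, a ratio of 0.09 (-0.27 to 0.43). In macrophages it had 3 UMIs in NOD and 42 in CD1, a ratio of -1.45 whose interval (-3.78 to 0.20) held 0 and which turned to 0.24 when lineages were set by clusters.

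*Serping1*, the inhibitor of the complement proteases C1r and C1s, was a stromal gene. Fibroblasts held 579 UMIs in NOD, 1169 CPM (1076 to 1268), and 84 UMIs in CD1, 737 CPM (588 to 913), a log2 ratio of 0.67 (0.33 to 1.01), and 78.9% of the NOD and 42.6% of the CD1 UMIs of the gene lay in this class. The CD1 level came from 6 of 17 barcodes, the highest with 24 UMIs, and CD1 fibroblasts were shallow (a median of 1695 UMIs against 7378 in NOD). With each barcode weighed the same the ratio was 1.45, and without the highest barcode of each library 0.87. Mural barcodes, 14 in NOD and 13 in CD1, were at 529 and 265 CPM. *C1s1* and *C1ra*, which encode proteases that the C1 inhibitor blocks, were at 915 and 421 CPM and at 614 and 202 CPM in fibroblasts. In endothelial barcodes *Serping1* was at 2.29 and 1.00 CPM (13 and 19 UMIs), a log2 ratio of 1.19 (0.05 to 2.29) that fell below 2-fold at a mitochondrial limit of 10%, and that was -2.16 when lineages were set by clusters.

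The interferon-gamma list was compared in the same way. It had 9 of 15 compared genes at least 2-fold higher in NOD macrophages, 12 of 13 in fibroblasts, 6 of 16 in T (with 1 lower), 5 of 15 in endothelial and 1 of 15 in NK barcodes, and its median log2 ratio was 1.39, 2.27, 0.92, 0.77 and 0.40. Over all genes 7.06%, 20.1%, 9.83%, 7.02% and 5.48% were called higher in these lineages, and the counts of this list and of those of acute phase, protease and other serpin genes are to be read beside these shares. *Serpina3g* was 2-fold higher in macrophage and endothelial but not in T or NK barcodes and had 0 UMIs in fibroblasts, where *Gbp2* was at 335 and 35.1 CPM. An acute phase and STAT3 list had 1 of 14 compared genes higher in macrophages, near the share over all genes, 3 of 14 in endothelial, 4 of 10 in fibroblast, 3 of 12 in T and 2 of 10 in NK barcodes, where 1 was lower, as was 1 in T barcodes.

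Of the 61 serpin genes not among the 8, 10 could be compared in endothelial barcodes, of which 6 were at least 2-fold higher in NOD and 0 lower. Among these were *Serpina1b* (15.7 and 0.687 CPM), *Serpina3h* (53.6 and 19.0 CPM), *Serpina3i* (17 and 10 UMIs), *Serpine2* (72.8 and 35.0 CPM) and *Serpine3* (2.12 and 1.06 CPM). In macrophages *Serpinb10* was higher (5.54 and 2.16 CPM) and *Serpinf1* and *Serpine2* were lower, 3 of 11 compared. In NK barcodes *Serpinb9b*, a relative of *Serpinb9*, had 51 UMIs in NOD and 0 in CD1, at least 17.2-fold higher over a floor of 3 counts for the CD1 class, *Serpina4-ps1* was higher and *Serpine3* lower. In T barcodes *Serpini1* was higher, at 42.7 and 15.7 CPM, as the only call of 4 compared, and in fibroblasts 0 of 2 were called.

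Likeness of pattern was taken as the correlation of log2 CPM (10 CPM added) over the 13 classes with at least 20 barcodes, which differ in depth and share libraries, and is a description only. The genes most like *Serpina3g* included *Slamf7* (0.94), those most like *Serpinb9* were *Apmap* (0.91) and *Ptpn12* (0.89), and those most like *Serpinb6a* were *Glo1* and *Mmut* (both 0.97). *Serpinb6b* was most like *Gm46266* and *Ppp2r2c* (both 0.90), *Serpinb1a* like *Ccdc62* and *Sh3bp5* (both 0.86), *Serpina3f* like *Trnt1* (0.90) and *Gm35624* (0.88) and *Serping1* like *Entpd2* and *Sema3a* (both above 0.99). Among these 13 classes *Serping1* was high only in NOD fibroblasts (1169 CPM) and at most 10.2 CPM elsewhere, so its correlations rest on 1 class. Among the serpins themselves, *Serpina3f* and *Serpina3g* were the closest pair, at 0.68.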

How the data were processed

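scRNAseq UMIs were read from the counts that the authors deposited as raw gene by barcode matrices. The submitters' processing notes name Cell Ranger 8.0.0, GRCm39, R 4.3.1 and Seurat 5.0.1. The 2 libraries held 52790319 (NOD) and 56483149 (CD1) UMIs. Barcodes with at least 500 UMIs and 300 genes were kept. A lineage needed at least 2 of its markers and no rival lineage above 50% of its share, which set aside barcodes with markers of several lineages as mixed, and no further doublet removal was applied. UMIs were summed per lineage and library. Intervals were exact Poisson for CPM, conditional binomial for ratios and Clopper-Pearson for shares. A fold of 2 with at least 20 UMIs was called, 3 counts served as the floor for 0 UMIs per class and library, and the interval and call code was tested on simulated data. With 1 library per strain no test was possible. The members, marker sets and gene lists were chosen with earlier results of these data known. Genes named are the 8 serpins, serpin relatives past the fold, genes of the protease, interferon-gamma and acute phase lists, and the 2 genes most alike each serpin, except *Serpina3n*. Values were computed with Python 3.11.15, numpy 2.4.6, scipy 1.17.1 and scanpy 1.11.5. Alternatives changed the barcode minimums, mitochondrial limits, doublets (Scrublet), lineages (Leiden clusters), scaling, weighting and free RNA. Some results are not reported here.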

Additional observations from a re-analysis of the deposited data

Results flagged for a closer look

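*Serpina3g* stood out because its log2 ratio, NOD over CD1, had opposite signs in different lineages. It was 6.30 in macrophages and -0.88 in NK barcodes, and 2.95 in endothelial barcodes against the same -0.88 in NK barcodes. The NK ratio was -0.41 (-0.69 to -0.13) within ILC1-like and 0.43 (-0.63 to 1.65) within conventional NK barcodes. Of the 30 NOD endothelial UMIs 1 barcode held 17, and the ratio in capillary barcodes was 1.27 (-0.36 to 2.82). The difference between lineages was not tested, since each strain had 1 library, and the macrophage value was among those that selected the gene.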

How the results depend on the processing

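Over 11 alternative settings, 26 serpin and lineage pairs gave 255 values, of which 229 stayed within the counting interval, 23 moved and 3 called ratios changed sign. The number of serpins at least 2-fold higher in NOD stayed at 2 in NK and at 1 in macrophage barcodes wherever a value could be had. In endothelial barcodes it was 1 at a mitochondrial limit of 10%, with the highest Scrublet scores removed, with Leiden clusters and with free RNA taken off by markers of other lineages, and 0 at a limit of 5% and with free RNA taken off by secretory genes. In T barcodes it was 1 (*Serpinb9*) at both mitochondrial limits, with each barcode weighed the same and without the highest barcode. In fibroblasts it was 1 (*Serping1*) with each barcode weighed the same and with free RNA taken off by secretory genes. The ratio of *Serpinb1a* in macrophages turned to 0.24 with Leiden clusters, and that of *Serping1* in endothelial barcodes to -2.16 with Leiden clusters and -1.52 with secretory genes. The cause was not tested. *Serpina3g* ranged from 6.18 to 7.28 in macrophages and, over 9 values, from 1.87 to 4.21 in endothelial barcodes. Secretory genes left no endothelial *Serpina3g* ratio, since their free RNA estimate (5.76 CPM) exceeded the NOD level (5.29 CPM). *Serpinb6b* ranged from 1.10 to 1.95 and *Serpinb9* from 1.15 to 2.05 in NK barcodes. *Serpinb1a* in T barcodes ranged from -4.36 to -0.22, and *Serpina3f* in NK barcodes from -3.57 to -1.09. Median-of-ratios scaling shifted all genes by 0.12 in macrophages and 0.15 in endothelial barcodes. No value could be had for any serpin in macrophages with secretory genes or in fibroblasts with Leiden clusters. Removal of the highest barcode, free RNA by other markers and the NK mix were chosen after seeing the data. No paired analysis was possible because each strain had 1 library. Depth limits the CD1 B, dendritic, T and fibroblast values most.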

Other observations

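The interferon-gamma list was also summed by *Serpina3g* in other NOD lineages. In dendritic barcodes the list stood at 9319 CPM in the 3 barcodes with a *Serpina3g* UMI and at 2996 CPM in the 33 without, with *Cxcl9* at 5561 and 92.6 CPM and dendritic markers lower in the 3, at 927 against 2560 CPM. In T barcodes it was at 2390 CPM in 220 barcodes with and 1637 CPM in 1811 without, and in NK barcodes at 1457 CPM in 101 with and 1149 CPM in 362 without, a fold of 1.27 that CD1 NK barcodes also showed (1139 and 895 CPM). Barcodes with a UMI were deeper in each lineage (medians of 21770 and 10410 UMIs in dendritic, 7864.5 and 5991 in T and 9630 and 6085.5 in NK barcodes), and the part of depth was not tested.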
